A study of Rattus norvegicus with 8 samples.

Results

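Expression of 9 genes that set or use the chloride gradient of brain cells was followed: the cation-chloride cotransporters Slc12a2, Slc12a4, Slc12a5 and Slc12a7, the kinase Wnk1, the chloride channel and exchanger genes Clcn2 and Clcn3, and the carbonic anhydrases Car2 and Car4. They were chosen by name, as every non-control spot whose gene name in the scanner files equals 1 of these 9 symbols. This gave 27 spots from 18 probes, of 43379 non-control spots per array, and 9 of 35250 gene names. All 9 genes were quantified, among 20825 genes with at least 1 spot valid in every rat.

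RNA of the dentate gyrus (DG, the hippocampal field that receives cortical input) came from 8 adult female Sprague-Dawley rats that had all been ovariectomized and had all undergone status epilepticus (SE, a prolonged seizure). The groups were COS, 4 rats injected with oil, and CES, 4 rats with estradiol (E2) replacement. Per the labels, E2 was given as 4 doses of 2 µg every 24 h, of which 2 preceded SE, SE was induced by 16 mg/kg of intraperitoneal kainic acid, and it was stopped with pentobarbital after 5 h. The study's methods give another kainic acid dose, another drug to end SE and all E2 doses before SE, with differing times of tissue collection, and nothing in the files decides between these accounts. Both groups carry the ovariectomy, the kainic acid and the drug that ended SE, and rats without SE were not analysed here, so the comparison asks how expression after SE differed with E2 replacement and not what SE changed.

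Inhibition by GABA depends on how much chloride a neuron holds. KCC2, the product of Slc12a5, moves chloride out of mature neurons together with potassium, NKCC1, the product of Slc12a2, moves it in with sodium and potassium, and WNK kinases act on both in opposite directions through the kinases SPAK and OSR1. Carbonic anhydrases make the bicarbonate that also passes through GABA receptors, and ClC-2 and ClC-3 carry chloride across the plasma membrane and the membranes of vesicles.

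Printed here are the only probes of Clcn2 and Clcn3, and for 3 genes with several probes a probe whose values are set against those of another probe of its gene. Each is 60 bases long, reads 5′ to 3′ as the files give it, and has its place in the files' rn4 build. The Clcn2 probe spans an intron on chromosome 11, plus strand, chr11:82436357-82436624. The Clcn3 probe lies on chromosome 16, plus strand, chr16:32505534-32505593. Probe 1 of Slc12a5 spans an intron on chromosome 3, plus strand, chr3:156033309-156034425. Probe 1 of Slc12a7 spans an intron on chromosome 1, minus strand, chr1:30312992-30334030. Probe 3 of Wnk1 lies on chromosome 4, minus strand, chr4:156298683-156298742.
Clcn2: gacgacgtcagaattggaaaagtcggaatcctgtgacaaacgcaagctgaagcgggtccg
Clcn3: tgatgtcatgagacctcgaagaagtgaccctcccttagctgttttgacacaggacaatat
Slc12a5 probe 1: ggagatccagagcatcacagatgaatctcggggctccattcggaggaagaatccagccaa
Slc12a7 probe 1: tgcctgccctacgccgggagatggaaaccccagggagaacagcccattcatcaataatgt
Wnk1 probe 3: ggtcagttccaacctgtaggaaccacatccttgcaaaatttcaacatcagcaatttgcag

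RefSeq promoter windows of 300 bases (250 before a start to 50 after it, GRCr8) matched 8 of the 9 genes, all but Car2, in 9 windows. Those of the 2 genes called higher in CES follow, with the letters of an arm of the estrogen response element, GGTCA on either strand, in capitals. The Slc12a5 window is chr3:174115583-174115882 and the Clcn2 window is chr11:93702344-93702643, both on the plus strand.
Slc12a5: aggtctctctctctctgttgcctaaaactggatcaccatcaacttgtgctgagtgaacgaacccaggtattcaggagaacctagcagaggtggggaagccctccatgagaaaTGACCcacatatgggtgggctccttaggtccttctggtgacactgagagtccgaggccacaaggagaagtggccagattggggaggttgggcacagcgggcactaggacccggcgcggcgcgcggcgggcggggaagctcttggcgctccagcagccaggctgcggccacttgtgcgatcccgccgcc
Clcn2: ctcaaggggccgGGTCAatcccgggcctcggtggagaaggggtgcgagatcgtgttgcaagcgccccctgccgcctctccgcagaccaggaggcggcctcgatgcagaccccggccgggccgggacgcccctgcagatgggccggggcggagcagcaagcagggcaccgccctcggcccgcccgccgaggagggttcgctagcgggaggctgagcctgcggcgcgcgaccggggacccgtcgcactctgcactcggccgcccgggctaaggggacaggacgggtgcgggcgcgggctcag
The arm was found in 5 of the 9 windows, those of Slc12a5, Slc12a7, Clcn2 and Car4 and 1 of the 2 of Clcn3, and in 40.5% of all 33469 windows. The full element GGTCANNNTGACC was in none of the 9 and in 0.0269% of all windows. The Egr letters GCGTGGGCG or GCGGGGGCG were in none of the 9 and in 3.2% of all, and the E-box CACGTG was in 1, that of Slc12a7, and in 6.42% of all. The full element contains the arm on each strand. These are matches of letters only.

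The level of a gene is the background-subtracted intensity of its spots, divided by the median over valid spots of its own label and array and given as log2, so that 0 is the median of a rat's valid spots. CES was set against COS by limma over all 20825 genes, and a gene was called where its adjusted p was under 0.05. The median CES minus COS difference of all genes was -0.25, and 5.74% of genes were called higher and 28.6% lower in CES. When each channel was instead divided by the median of the spots valid in all 8 rats, called common-spot scaling here, that median was 0.14 and the shares became 16.2% higher and 8.56% lower. Differences are therefore also given against the all-gene median. Of the 9 genes, 2 were called higher, 3 lower and 4 neither, so 5 of 9 were called beside 34.3% of all genes. In 2 of the 9, Slc12a4 and Wnk1, every CES rat lay below every COS rat, beside 19.7% of all genes in that direction, 1.55% in the other and 21.2% in either. With each rat's own median over all genes taken off, CES lay above COS without overlap in Slc12a5, Clcn2 and Clcn3 and below in Slc12a4. Wnk1 then overlapped. Such separation held for 17.4% of all genes with CES above and 11.7% with CES below. Under common-spot scaling the calls of Slc12a5 (1.23, limma adjusted p = 0.0239), Clcn2 (1.11, 0.0289) and Slc12a4 (-0.67, 0.0273) held. All 5 calls were lost with normexp background, where 139 of all genes were called higher and 492 lower. They were also lost with no filter on valid spots and by the methods' t-test, where 0 of all genes were called in either direction.

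The rat CES2 stood apart from its group. Its correlation with the COS rats over all genes ran from 0.974 to 0.983, against 0.954 to 0.964 with the other CES rats. Those other CES rats correlated at 0.978 to 0.988 among themselves and at 0.932 to 0.943 with the COS rats. For 5 of the 5 called members CES2 was the CES rat nearest to COS, and each of the 9 genes is given with and without it. Without CES2, 8.7% of all genes were called higher and 33% lower, and values did not overlap in 7.79% with CES above and 22.4% with CES below. In the other direction, without COS3 none of the 9 members was called, while 285 of all genes were called higher and 1142 lower.

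Slc12a5 (Kcc2), the chloride extruder of neurons, was higher in CES than in COS. Its level was 4.71, 4.55, 5.02 and 4.18 in COS1 to COS4, and 5.67, 4.63, 5.83 and 5.64 in CES1 to CES4. CES1, CES3 and CES4 lay above every COS rat, while CES2 lay within the COS range. The mean went from 4.61 ± 0.35 (SD, n = 4) to 5.44 ± 0.55 (SD, n = 4), a difference of 0.83 ± 0.23 (SE; limma adjusted p = 0.0210). This is 1.78-fold, with a 95% interval of 1.25 to 2.53, and 1.08 above the all-gene median on the log2 scale. Without CES2 the difference was 1.05 (limma adjusted p = 0.00161) and the groups did not overlap. With each rat's own median over all genes taken off, levels were 3.65 to 3.82 in COS and 4.21 to 5.40 in CES. There the groups did not overlap with CES2 kept, as held with CES above for 17.4% of all genes. The call was lost without COS1 (adjusted p = 0.0742), COS3 (0.0803), COS4 (0.0743) or CES1 (0.0717). The study listed Slc12a5 for these rats as lowered by SE with oil and kept with E2, each group set against rats without SE. Those are not comparisons of CES with COS. The rats are the same, so the direction found here is not independent evidence.

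The Slc12a5 value rests on 1 of its 2 probes. Probe 2, near the end of the transcript (chr3:156037850-156037909, plus strand, rn4), had a foreground of 302 to 1286 times its background. It was 0.84 ± 0.23 (SE) higher in CES, with a limma adjusted p of 0.0199 over all probes, of which 5.46% were called higher and 29.4% lower. Probe 1, whose letters are given above, passed the software's mark for a signal well above background in 1 COS rat and 1 CES rat. Its difference was -0.73 ± 0.43 (SE; limma adjusted p = 0.213), opposite in sign and not called.

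Slc12a2 (Nkcc1), the chloride importer, was not called. Its level was 0.53, 0.61, 0.30 and 0.07 in COS1 to COS4, and 0.00, -0.20, 0.29 and -0.27 in CES1 to CES4. The groups overlapped, with CES3 inside the COS range. The difference was -0.42 ± 0.18 (SE; limma adjusted p = 0.101), or -0.17 against the all-gene median, and -0.02 under common-spot scaling. Without CES2 it was -0.40 (adjusted p = 0.134), and without COS2 it was -0.28 (0.274), near the all-gene median of -0.25. Of the fits that left out a rat, only that without CES3 passed, at -0.50 (adjusted p = 0.0498), and 7 did not.

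Slc12a2 has 2 probes, and probe 1 is printed 10 times on each array (rat chromosome 18, 53700271 to 53702611, plus strand, rn4). Over its 8 spots used, the spread within a rat had an SD of 0.12 to 0.23 on the log2 scale, while rats of 1 group differed with an SD of 0.26 in COS and 0.38 in CES. These group SDs include the dye, which the fit takes out. In CES the Cy3 rats were at -0.94 and -0.92 and the Cy5 rats at -1.50 and -1.65. In COS they were at -0.40 and -0.52 (Cy3) and at -0.50 and -0.98 (Cy5). Probe 1 fell by 0.65 ± 0.18 (SE) (limma adjusted p = 0.0184), or -0.38 against the all-probe median. It was dim, with a foreground of 4.11 to 11.2 times its background, and well above background in 3 COS rats and 3 CES rats. Probe 2 was well above background in every rat, at 21.4 to 116.5 times. Probe 2, at 53739918 to 53739977, differed by -0.26 ± 0.20 (SE; adjusted p = 0.344), or 0.01 against that median.

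The ratio of Slc12a2 to Slc12a5 within a rat does not depend on the number by which its channel is divided. Its absolute value depends on the probes, so only the differences between rats can be read. The log2 ratio was -4.18, -3.95, -4.73 and -4.11 in COS1 to COS4, and -5.67, -4.84, -5.53 and -5.91 in CES1 to CES4. Every CES rat lay below every COS rat, with CES2 and COS3 next to each other at the boundary. The means were -4.24 ± 0.34 (SD, n = 4) and -5.49 ± 0.46 (SD, n = 4), a difference of -1.25 that is given with no test because both genes were chosen with earlier results known. With the dim Slc12a2 probe 1 alone the difference was -1.49 and the groups did not overlap. With the brighter probe 2 alone it was -1.10 and they overlapped.

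**Figure D1:**
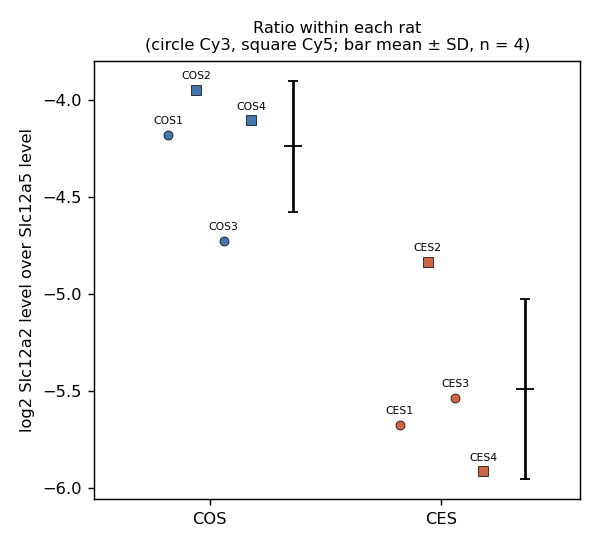
Log2 ratio of the Slc12a2 level to the Slc12a5 level in each rat, with the mean and SD of each group (n = 4). All CES rats, from -5.91 to -4.84, lie below all COS rats, from -4.73 to -3.95.

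The patterns most like that of Slc12a5 over the 8 rats were those of Gpld1 (Pearson r 0.998), Tmem38a (0.997) and the unnamed transcript TC610424 (0.995), each given without a p because the rats share the same groups, dyes and arrays. Gpld1, which encodes a phospholipase that cuts lipid anchors of surface proteins, was 0.94 higher in CES, and Tmem38a, which encodes a potassium channel of the endoplasmic reticulum, was 0.98 higher. For Slc12a2 the nearest were the probe A_44_P447701 (r 0.976), Mk1 (0.974) and the transcript TC588875 (0.974).

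Slc12a4 (Kcc1), a potassium-chloride cotransporter found in many cell types and used in volume control, fell in CES. Its level was 3.40, 3.20, 3.41 and 2.74 in COS1 to COS4, and 1.88, 2.37, 2.34 and 1.88 in CES1 to CES4. Every CES rat lay below every COS rat. The difference was -1.07 ± 0.20 (SE; limma adjusted p = 0.00542), or 0.476-fold with a 95% interval of 0.348 to 0.652, and -0.82 against the all-gene median. It was -1.21 without CES2 (adjusted p = 8.03e-04), and it missed the threshold without COS3 (adjusted p = 0.0545).

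Slc12a7 (Kcc4), the relative of Kcc1 known from kidney and inner ear, also fell. Its level was 1.23, 1.16, 1.15 and 0.48 in COS1 to COS4, and 0.13, 0.56, 0.01 and -0.34 in CES1 to CES4. COS4 and CES2 crossed, and the other rats of each group did not overlap. The difference was -0.91 ± 0.24 (SE; limma adjusted p = 0.0166), or 0.531-fold with a 95% interval of 0.369 to 0.766, and -1.13 without CES2 (adjusted p = 0.00127). The call was lost without COS1 (adjusted p = 0.0573), COS3 (0.0952) or CES1 (0.0671), and under common-spot scaling (-0.51, adjusted p = 0.0989).

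The Slc12a7 probes disagreed in size. Probe 5, toward the end of the transcript (chr1:30281140-30281199, minus strand, rn4), fell by 1.53 ± 0.31 (SE) in CES (limma adjusted p = 0.00598) and did not overlap between groups. Probe 1, the intron-spanning probe at the start of the transcript shown above, differed by -0.27 ± 0.18 (SE; adjusted p = 0.275), which is 0.00 against the all-probe median. Probes 2, 3 and 4 between them were not valid in every rat, and only probe 4 was well above background in any, in 1 COS rat.

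Wnk1, the kinase at the head of the WNK to SPAK and OSR1 cascade, fell by 0.54 ± 0.16 (SE; limma adjusted p = 0.0279) on the log2 scale, which is 0.688-fold with a 95% interval of 0.537 to 0.882. Its level was 2.98, 2.62, 3.12 and 2.64 in COS1 to COS4, and 2.38, 2.41, 2.35 and 2.07 in CES1 to CES4. No CES rat reached the lowest COS rat. With each rat's own median over all genes taken off, the groups overlapped, at 1.84 to 2.16 in COS and 1.57 to 1.98 in CES. Against the all-gene median the difference was -0.28, and it was at percentile 30.8 of the differences of all genes. Under common-spot scaling it was -0.14 (adjusted p = 0.468), and no call was made. It was -0.63 without CES2 (adjusted p = 0.0103), and the call was lost without COS1 (adjusted p = 0.0890), COS2 (0.0511), COS3 (0.124), COS4 (0.0589) or CES1 (0.0930).

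The 4 Wnk1 probes all had lower means in CES. Probe 4, the brightest (chr4:156296325-156296384, minus strand, rn4), differed by -0.53 (limma adjusted p = 0.0305), probe 1 by -0.61 (0.0335) and probe 3 by -0.83 (0.0162). Of these only probe 4 was well above background in every rat. Probe 1 was so in 3 COS and 3 CES rats, and probe 3 in 3 COS and 2 CES rats. Probe 2, which the files assign to 2 of the 3 Wnk1 transcripts that the other probes cover, was well above background in no COS rat and 1 CES rat, so its fitted difference of -0.51 (0.0916) cannot be read as a fold.

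**Figure D2:**
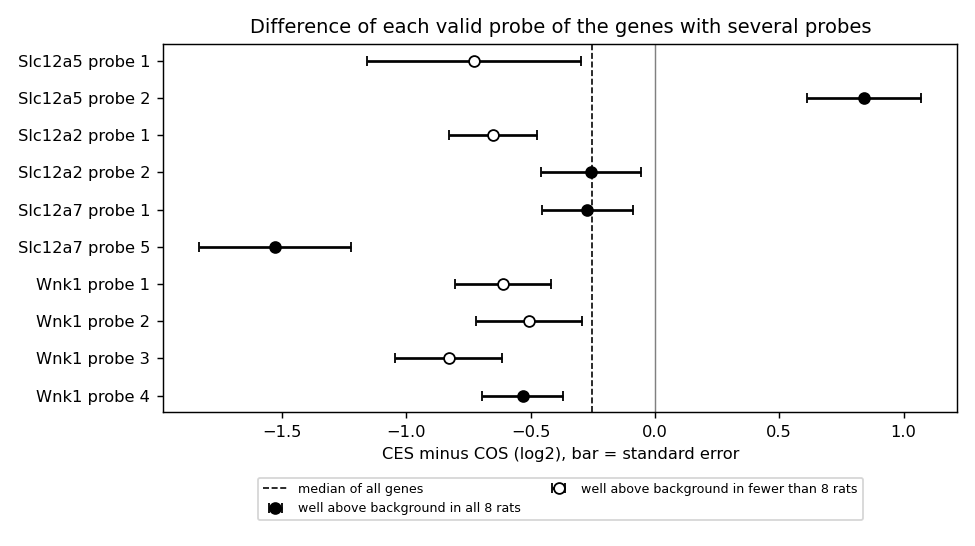
CES minus COS difference (log2) with its SE for each probe valid in every rat, for the 4 genes with several probes. Filled points were well above background in all 8 rats; probe 2 of Slc12a5 lies at 0.84 and its dim probe 1 at -0.73, and the 2 Slc12a7 probes lie at -0.27 and -1.53.

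Clcn2, which encodes the chloride channel ClC-2 that opens on hyperpolarization in neurons and glia, rose in CES. Its level was 0.79, 0.74, 0.67 and 0.23 in COS1 to COS4, and 1.74, 0.66, 1.56 and 1.32 in CES1 to CES4. CES2 again lay within the COS range and the other CES rats above it. The difference was 0.72 ± 0.21 (SE; limma adjusted p = 0.0252), or 1.64-fold with a 95% interval of 1.19 to 2.26, and 0.97 against the all-gene median. It was 0.89 without CES2 (adjusted p = 0.00346), where the groups did not overlap. With each rat's own median over all genes taken off, levels were -0.53 to -0.05 in COS and 0.24 to 1.16 in CES, without overlap. The call was lost without COS1 (adjusted p = 0.0799), COS3 (0.125), COS4 (0.0864) or CES1 (0.101). The single probe had a foreground of 9.26 to 38.8 times its background.

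Clcn3, whose product ClC-3 exchanges chloride for protons in endosomes and synaptic vesicles, was not called. Its level was 3.35, 3.00, 3.40 and 2.75 in COS1 to COS4, and 3.33, 2.90, 3.80 and 3.09 in CES1 to CES4, and the groups overlapped. The difference was 0.15 ± 0.17 (SE; limma adjusted p = 0.518), with a 95% interval of -0.23 to 0.53, and it was 0.20 without CES2 (adjusted p = 0.411). Under common-spot scaling it was 0.55 and was called (adjusted p = 0.0352). Each rat's level minus that rat's median over all genes was 2.20 to 2.29 in COS and 2.47 to 3.01 in CES, without overlap, as held with CES above for 17.4% of all genes and with CES below for 11.7%.

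Car2 and Car4, a cytosolic and a membrane-anchored carbonic anhydrase, were not called. Car2 was at 5.92, 5.64, 6.48 and 4.86 in COS1 to COS4 and at 5.97, 5.03, 6.07 and 5.68 in CES1 to CES4. Car4 was at 3.60, 3.82, 4.91 and 4.19 in COS1 to COS4 and at 4.19, 3.70, 4.03 and 3.73 in CES1 to CES4. COS3 was the highest of all rats for both genes, and the groups overlapped. The 95% interval of the difference ran from -0.56 to 0.49 for Car2 and from -0.80 to 0.36 for Car4, which for Car2 spans a fall to 0.678-fold. Without CES2 the differences were 0.07 for Car2 (limma adjusted p = 0.848), above 0, and -0.20 for Car4 (0.607). The sign of both differences turned from below to above 0 under common-spot scaling (0.36 for Car2 and 0.18 for Car4).

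**Figure D3:**
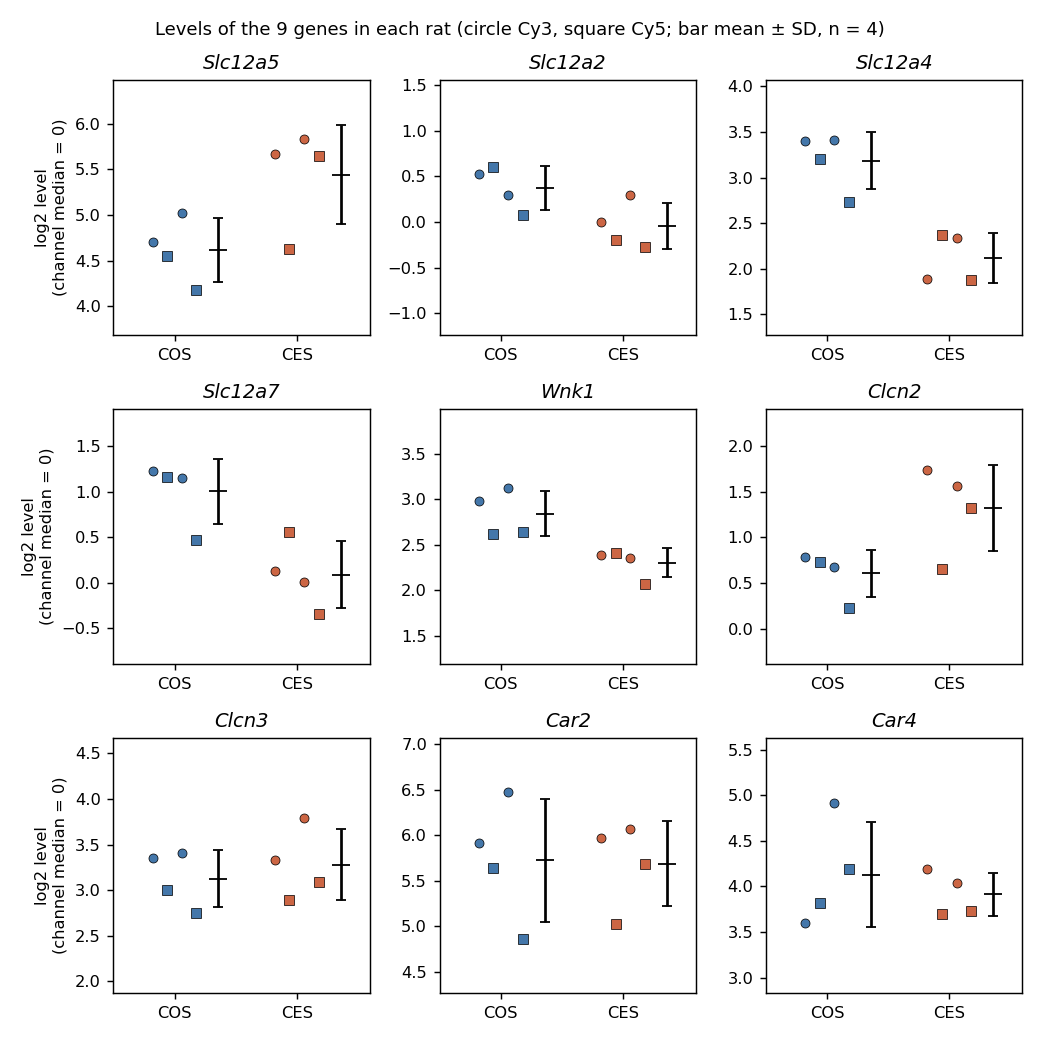
Log2 level of each of the 9 genes in each COS and CES rat, with the mean and SD (n = 4); every panel spans the same range of log2 units. Slc12a4 and Wnk1 do not overlap between groups, while in Slc12a5 and Clcn2 the rat CES2 lies among the COS rats. With each rat's own median over all genes taken off, Slc12a5 and Clcn2 do not overlap and Wnk1 does.

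**Figure D4:**
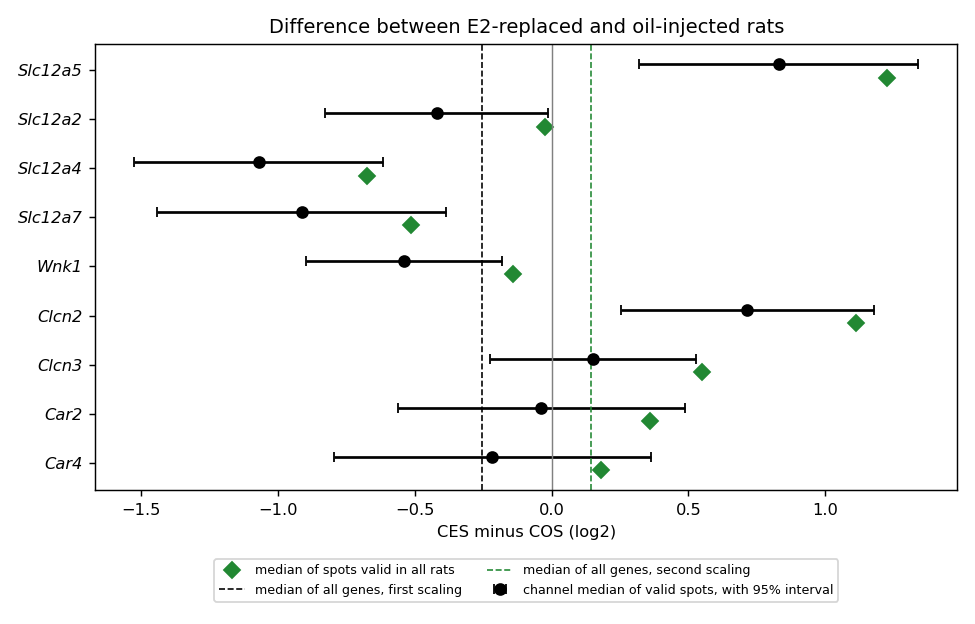
CES minus COS difference (log2) of the 9 genes with its 95% interval, and the same difference under common-spot scaling. Dashed lines mark the median of all genes under each scaling, -0.25 and 0.14. Common-spot scaling moves every gene and the median by the same amount, so the side on which a gene lies is fixed between the scalings. Slc12a5, Clcn2, Clcn3, Car2 and Car4 lie above the median of their scaling, and Slc12a4, Slc12a7, Slc12a2 and Wnk1 below it.

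Of 104 further genes of chloride and bicarbonate handling in 8 lists, 96 were on the array and 73 were quantified, of which 7 were called higher, 16 lower and 50 neither. That is 3 cotransporters, 10 genes of the WNK and SPAK cascade, 7 of the CLC family, 13 other chloride channels, 8 carbonic anhydrases, 10 bicarbonate transporters, 13 partners and regulators of Kcc2 and 9 subunits of the sodium pump. Their median difference was -0.05, beside -0.25 over all genes. Over all genes 5.74% were called higher and 28.6% lower. Under common-spot scaling 22 were called higher and 6 lower, beside 16.2% and 8.56% of all genes. Without CES2 16 were higher and 19 lower, beside 8.7% and 33% of all genes.

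Among the other cotransporters (0 higher, 1 lower of 3) Slc12a9, a relative without settled transport function, fell by 0.84 on the log2 scale (limma adjusted p = 0.00756). In the kinase cascade (1 higher, 2 lower of 10) Wnk4, well above background in 3 COS rats and 4 CES rats, was 0.73 higher (adjusted p = 0.0249), while Oxsr1, which encodes OSR1, fell by 0.51 (0.0370). Sgk1, a steroid-responsive kinase that acts on WNK signaling, fell by 1.46 (0.00375), with every CES rat below every COS rat. The fall of Oxsr1 was not called under common-spot scaling (-0.11, adjusted p = 0.546).

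In the CLC family (1 higher, 1 lower of 7) Clcn4, an endosomal exchanger close to ClC-3, was 1.21 higher in CES (limma adjusted p = 0.00527). Its level was 1.56, 1.28, 1.57 and 1.07 in COS1 to COS4 and 2.80, 1.72, 3.03 and 2.77 in CES1 to CES4, without overlap.

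Among the other chloride channels (1 higher, 5 lower of 13) the intracellular channel genes Clic1 and Clic4 both fell. Clic1 fell by 2.63 (limma adjusted p = 0.00510) and Clic4 fell by 1.69 (0.00451). Clic1 was at 6.50, 6.11, 6.49 and 6.16 in COS1 to COS4, and at 2.89, 5.41, 3.69 and 2.75 in CES1 to CES4, so CES2 fell least. Lrrc8c, a subunit of the volume-regulated anion channel, fell by 0.96 (0.00758; 0.0506 under common-spot scaling), and Cftr, well above background in 3 rats of each group, was 0.63 higher (0.0439).

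Of the other carbonic anhydrases (1 higher, 3 lower of 8; 3 and 3 without CES2), Car7, the cytosolic enzyme of mature hippocampal neurons, was 0.93 higher in CES (limma adjusted p = 0.00850), though it was well above background in only 2 of 4 COS rats against 4 of 4 CES rats, and Car6 fell by 0.88 (0.00818). Car8 and Car9 fell by 0.62 (0.0350) and 0.47 (0.0444), and none of these 3 falls was called under common-spot scaling, with adjusted p-values of 0.0962, 0.357 and 0.690. Both called bicarbonate transporters (2 higher, 0 lower of 10) rose. Slc4a4, the sodium bicarbonate cotransporter of astrocytes, was 1.17 higher (0.0166). The sulfate and bicarbonate exchanger Slc26a1, well above background in 3 COS rats and 4 CES rats, was 1.32 higher (0.0129). The groups overlapped in both, with CES2 within the COS range at 1.46 for Slc4a4 and -0.70 for Slc26a1.

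Of the partners and regulators of Kcc2 (0 higher, 3 lower of 13) the kinase gene Prkcd fell by 1.92 (limma adjusted p = 0.00807) and the protease gene Capn2 by 1.27 (0.00680), with every CES rat below every COS rat for both. Under common-spot scaling the fall of Capn2 missed the threshold (-0.87, adjusted p = 0.0540). Capn1 was well above background in no COS rat, and no fold is given for it. Of the sodium pump subunits (1 higher, 1 lower of 9; 4 and 2 without CES2), whose gradient drives the cotransporters, Atp1b2 was 0.72 higher (0.0263) and Atp1b3 fell by 1.00 (0.00453), neither overlapping between groups.

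**Figure D5:**
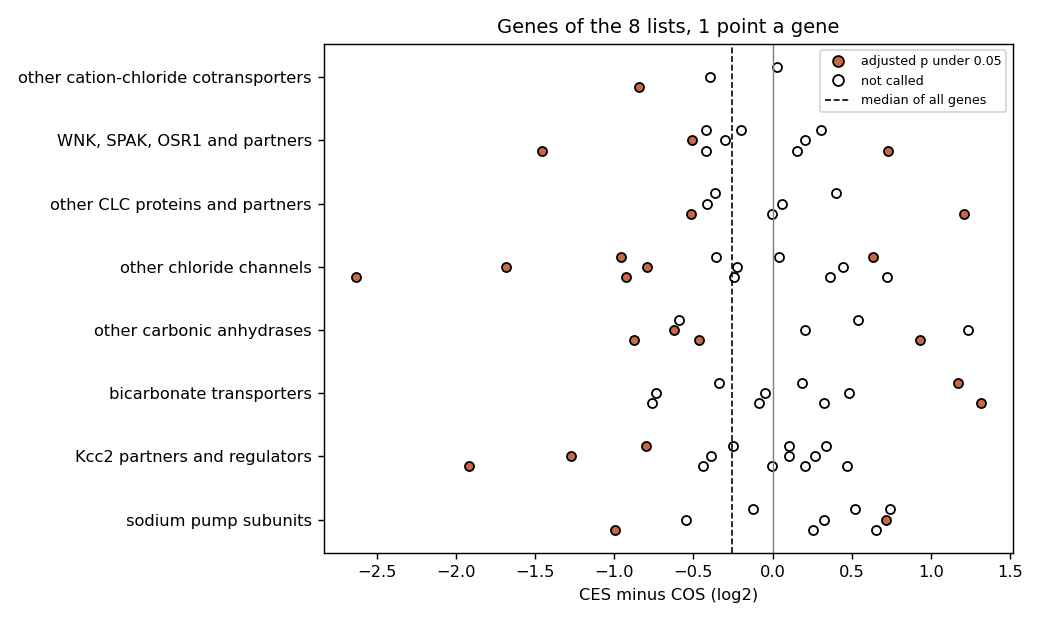
CES minus COS difference (log2) of every quantified gene of the 8 lists, 1 point a gene, filled where the limma adjusted p was under 0.05. The lowest point is Clic1 at -2.63 and the highest is Slc26a1 at 1.32; the dashed line is the median of all genes at -0.25.

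In bulk tissue, fewer cells of a type and less RNA per cell cannot be told apart. Marker levels were summed per rat on the linear scale of the gene levels. The counts of calls stand beside 5.74% of all genes higher and 28.6% lower in CES. Prox1, the defining gene of granule cells, was well above background in no rat, whereas the granule cell genes C1ql2 and Calb1 were in all 8, and 3 of the 5 quantified granule cell genes were lower in CES and 0 higher (sum 12.7 to 22.7 in COS, 9.56 to 13.2 in CES). Of these 3, Tdo2 was well above background in no rat. General neuronal genes, beside which the Slc12a5 level may be read, had 2 of 7 higher and 1 lower, with sums of 466 to 597 in COS and 486 to 651 in CES. The median difference of these neuronal genes was 0.34, or 0.59 against the all-gene median, and 6 of the 7 lay above that median. Slc12a5 was 1.08 above it. Genes of CA1 and CA3 pyramidal cells had 4 of 7 higher and 0 lower (22.1 to 30.3 in COS, 26.5 to 59.1 in CES), and those of hilar cells 0 of 7 higher and 2 lower (325 to 527, 99.3 to 272). The hilar sum is mostly Sst and Npy, the 2 called lower. Of the others, Calb2 (0.53) and Pvalb (0.51) were higher and Gad1 (-0.57), Gad2 (-0.58) and Drd2 (-0.06) lower, none of them called. Microglial genes had 1 of 9 higher and 5 lower, with sums of 183 to 270 in COS and 69.9 to 149 in CES that did not overlap. The largest part of this sum is C1qb, called lower, with a mean log2 level of 7.02 in COS and 5.67 in CES. P2ry12 was the 1 called higher, by 0.93, and 3 were called neither. Astrocyte genes had 3 of 9 higher and 2 lower (297 to 350, 262 to 416), oligodendrocyte genes 0 of 9 in either direction (235 to 420, 312 to 488), endothelial genes 1 of 8 higher and 4 lower (39.9 to 59.7, 43.1 to 57.5) and meningeal genes 1 of 7 higher and 1 lower (28.8 to 99.9, 31.8 to 40.3). Choroid plexus, a tissue rich in Nkcc1 and carbonic anhydrase, had 0 of 7 genes called, and its sum ranged from 32.8 to 739 in COS, highest in COS2, and from 47.4 to 246 in CES. Under common-spot scaling the counts of higher and lower genes were 0 and 0 for granule cells, 4 and 0 for neurons, 4 and 0 for pyramidal cells, 2 and 2 for hilar cells, 1 and 1 for microglia, 3 and 0 for astrocytes, 2 and 1 for endothelium, 1 and 0 for meninges, and 0 and 0 for oligodendrocytes and choroid plexus. Without CES2 they were 0 and 3 for granule cells, 3 and 1 for neurons, 4 and 1 for pyramidal cells, 2 and 4 for hilar cells, 1 and 6 for microglia, 4 and 3 for astrocytes, 2 and 0 for oligodendrocytes, 1 and 5 for endothelium, 1 and 1 for meninges and 0 and 0 for choroid plexus. Singly, Gfap differed by -1.22 and missed the threshold (limma adjusted p = 0.0531), and Aif1 (-0.32), Cldn5 (-0.25), Mbp (0.21) and Ttr (0.52, with COS2 at 9.22) were not called. The part of these cell types in the differences above was not tested.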

How the data were processed

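RNA of 8 rats (4 COS, 4 CES) was hybridized to 4 two-colour rat arrays on 1 slide, each array holding a pair of rats of the same group, with odd replicates in Cy3 and even replicates in Cy5. The scanner files as deposited by the authors hold the intensity of each spot and its local background per channel, extracted with Agilent Feature Extraction 10.7.3.1 per the submitters' processing notes, before normalization. A log2 table that the authors also deposited equals the log2 of median signal minus background, centred on each column's median (0.0 in each column). No spot was saturated.

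Following the study's methods, a spot counted as valid from a foreground of 2 times its background. Mean signal minus median background was divided by the median of same-label valid spots in the array. These values were averaged per gene over its spots valid in all 8 rats (26294 spots) and taken to log2. The 1593 spots marked as outliers in at least 1 channel were left out. Probes were named by RefSeq accession where it matched (17512 of 41012) and otherwise kept the file's name; member genes were taken by the file's name. Valid spots numbered 32381 to 38553 in COS and 30690 to 35352 in CES, and the number of arrays limits the precision, a median standard error of 0.20 (log2).

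The CES minus COS difference was tested with limma 3.58.1 (R 4.3.3, statmod 1.5.0), two-sided, with dye as a fixed term, array as a random block (within-array correlation -0.01) and Benjamini-Hochberg adjustment over 20825 genes. Array is nested in group, so only a random block could carry it, and the slide could not be a block. No source says that the rats of a group were independent in litter or day, so p-values measure the spread between these samples. Tested on simulated data of this layout over 20825 genes, the CES minus COS fit called 89% of genes changed by 2 and 29% of genes changed by 1 (log2). Only 100 genes were changed by each amount, whereas 34.3% of all genes were called in the data. Rats on the same simulated array were also correlated, unlike those here (-0.01). These percentages therefore do not give the power of the fit on these data. Figures used Python 3.11.15 and matplotlib 3.10.9. The genes followed and all gene lists were chosen with earlier results of these data known. Named singly are the 9 genes, at most 4 called genes a list with the largest difference against the all-gene median, the 3 genes most like Slc12a5 and Slc12a2 by Pearson r, and the markers Ttr, Mbp, Cldn5, Gfap, Aif1 and Prox1. C1ql2, Calb1, Tdo2, C1qb, P2ry12 and the quantified hilar genes were named after their values were seen. A called gene of the lists is not reported here by name. Alternatives covered background, scaling, filters, block, dye, replicate number, probes, the methods' t-test, the deposited table and leaving out each rat. Keeping spots marked as outliers was added after seeing the data.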

Additional observations from a re-analysis of the deposited data

Results flagged for a closer look

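In groups of 4, a rat was singled out where its gap to the nearest other rat, divided by the group's range, was above Dixon's critical value at the 95% level. Of 62 groups examined 4 were singled out, and chance does this in about 1 group in 20. CES2 was far below the other CES rats in Slc12a5 (level 4.63, gap share 0.846) and far above them in Prkcd (level 3.17, gap share 0.844). COS4 was far below the other COS rats in Slc12a7 (level 0.48, gap share 0.903). CES4 was far below the other CES rats in Wnk1 (level 2.07, gap share 0.848). COS4 was also the lowest COS rat in 7 of the 9 genes followed. The median of COS4 over all genes was 0.48, beside 0.78 to 1.20 in the other COS rats. With each rat's own median taken off, COS4 was above COS3 in Slc12a7 (-0.01 and -0.05). In Wnk1, CES4 (1.82) was then above CES1 (1.80) and CES3 (1.57). CES2 stayed the lowest CES rat in Slc12a5 (4.21).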

How the results depend on the processing

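The cause of each change below was not tested, except where a setting drops rats. The differences (log2, with limma adjusted p in parentheses) changed call or sign as follows. With normexp background Slc12a4 was -0.83 (0.201), Slc12a5 0.99 (0.137), Slc12a7 -0.59 (0.434), Clcn2 0.65 (0.371), Wnk1 -0.36 (0.731) and Car2 0.14 (0.957). That left 139 genes called higher and 492 lower, with 0 members in either direction and 1 pathway gene higher and 3 lower. Without a filter on valid spots, Slc12a4 was -0.72 (0.0976), Slc12a5 1.18 (0.0854), Slc12a7 -0.44 (0.229), Clcn2 1.06 (0.0941), Wnk1 -0.19 (0.562), Car2 0.31 (0.517) and Car4 0.13 (0.821). No gene, member or pathway gene was then called in either direction (0 of 34548 by limma; 9067 at an unadjusted p under 0.05). With loess and Aquantile, Slc12a7 was -0.51 (0.109), Clcn3 0.50 (0.0345), Car2 0.23 (0.477), Car4 0.089 (0.834) and Wnk1 -0.22 (0.289), with 2999 genes higher and 1943 lower, 1 member lower, and 21 pathway genes higher and 7 lower. With quantile normalization, Slc12a7 was -0.54 (0.0867), Clcn3 0.48 (0.0378), Car2 0.22 (0.501), Car4 0.088 (0.835) and Wnk1 -0.24 (0.245), with 3023 genes higher and 2257 lower, 1 member lower, and 21 pathway genes higher and 10 lower. Under common-spot scaling, Slc12a7 was -0.51 (0.0989), Clcn3 0.55 (0.0352), Car2 0.36 (0.315), Car4 0.18 (0.657) and Wnk1 -0.14 (0.468), with 3384 genes higher and 1783 lower, 1 member lower, and 22 pathway genes higher and 6 lower. In the deposited log2 table, Slc12a7 was -0.53 (0.0923), Clcn3 0.51 (0.0423), Car2 0.31 (0.377), Car4 0.14 (0.731) and Wnk1 -0.16 (0.392), with 3213 genes higher and 1927 lower, 1 member lower, and 21 pathway genes higher and 9 lower. With valid spots set at 3 times background, Slc12a7 was -0.79 (0.0518), Car2 0.081 (0.811) and Wnk1 -0.42 (0.0839), with 2811 genes and 1 member lower and 10 pathway genes lower. With the software's processed signal Wnk1 was -0.52 (0.0570), and without the dye term 12 pathway genes were higher. Each probe on its own gave -0.65 (0.0184) for Slc12a2 probe 1, -0.73 (0.213) for Slc12a5 probe 1, -0.27 (0.275) for Slc12a7 probe 1 and -0.51 (0.0916) for Wnk1 probe 2, which was well above background in no COS rat.

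By the methods' t-test with Benjamini-Hochberg adjustment, no gene, member or pathway gene was called in either direction (0; 5909 genes and 4 members at an unadjusted p under 0.05), with differences of -1.07 (adjusted p = 0.0768) for Slc12a4, 0.83 (0.176) for Slc12a5, -0.91 (0.0929) for Slc12a7, 0.72 (0.174) for Clcn2 and -0.54 (0.0977) for Wnk1. With the replicate number as a block in place of dye, Clcn2 stayed at 0.72 but missed the threshold (limma adjusted p = 0.0501), so 1 member was called higher. Rats with the same number deviated together (r 0.21 to 0.35), but not after the dye was removed (-0.06 to -0.04). The dye was removed as the mean of the pair of rats of each group and dye, which also takes out whatever that pair shares. The check therefore cannot show that same-numbered rats share only a number and its dye.

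Leaving out each rat in turn gave, from lowest to highest, -0.50 to -0.28 for Slc12a2, -1.21 to -0.92 for Slc12a4, 0.60 to 1.05 for Slc12a5, -1.13 to -0.73 for Slc12a7, 0.61 to 0.89 for Clcn2, 0.03 to 0.23 for Clcn3, -0.24 to 0.13 for Car2, -0.49 to 0.0036 for Car4 and -0.63 to -0.48 for Wnk1. Genes called higher numbered 285 (without COS3) to 1812 (without CES2), and lower 1142 (without COS3) to 6954 (without CES3). Members called ran from 0 to 2 higher and 0 to 4 lower, and pathway genes from 2 to 16 higher and 3 to 22 lower. The Slc12a2 to Slc12a5 ratio differed by -1.47 to -1.10 with each rat left out and under the gene-level settings run, and by -1.49 and -1.10 with Slc12a2 probe 1 or probe 2 alone. The 5 called members kept their sign under every setting run at gene level. Spots near background limit Slc12a5 probe 1, Slc12a7 probes 2 to 4 and Wnk1 probe 2. Slc12a2 probe 1 and Wnk1 probes 1 and 3 were also not well above background in every rat.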
